A study of Mus musculus with 8 samples.

Results

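The collagen genes of mouse tumours were described across 8 RNA-seq libraries. Members were the protein-coding genes whose symbol has the form Col, number, a, number, and 44 of the 34745 listed genes met that rule. They comprised 11 fibrillar chains, 6 basement membrane chains (type IV) and 27 others, among them the beaded filament (type VI), fibril-associated, multiplexin, network-forming, anchoring and transmembrane collagens. The tumours were grown from B16F10, a mouse melanoma cell line, injected under the skin of C57BL/6J mice. In 1 group, called ND 1 to ND 4, the mice were fed a normal diet, and in the other, called HCD 1 to HCD 4, a high cholesterol diet. Whether each library came from its own tumour and its own mouse is not stated in the labels. The p-values therefore cover the spread among these libraries alone, part of which may be technical. Below, a library is also called a tumour. Tumour and host are both mouse, so RNA of melanoma cells and of host cells cannot be told apart by sequence.

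Collagens are secreted proteins whose chains wind around each other into a triple helix. Fibrillar collagens (types I, III and V here) assemble into the fibrils of connective tissue and are made largely by fibroblasts. Type IV collagen forms the sheet-like network of basement membranes, which lie under endothelium and around muscle, fat and nerve cells. Type VI forms microfilaments beside cells, and fibril-associated collagens such as types XII and XIV sit on the surface of fibrils. In a tumour under the skin, fibrillar collagen is a main component of the stroma, the supporting tissue between tumour cells.

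Total counts ran from 14599222 to 17722093 per library. Melanocyte markers (Pmel, Mlana, Dct, Tyr, Tyrp1 and Mitf) were abundant throughout, with all 6 counted in each library. Libraries ND 2, ND 3 and ND 4 stood apart: 438 to 465 olfactory or vomeronasal receptor genes had a count there, against 8 to 13 in the other 5. Skeletal muscle markers also differed, with a summed level of 52.9 CPM (counts scaled to a fixed library total with TMM factors) in ND 1 and 88.6 CPM in ND 2, against 4.24 to 13.8 CPM in the others.

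Type I and type III fibrillar collagens had the widest spread of the abundant members, and that spread cut across the diets. Col1a1, Col1a2 and Col3a1 were high in ND 1, HCD 1, HCD 2 and HCD 3, intermediate in ND 2 and low in ND 3, ND 4 and HCD 4. The basement membrane chains Col4a1 and Col4a2 differed by at most 1.41 times between any 2 tumours. None of the 27 collagen genes that passed the filter on low counts was called for diet.

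Stretches of the promoter windows of Col1a2 and Col3a1 are shown, and both genes moved together over the tumours. Whether these stretches bear on that was not tested. Of the 44 members, 35 had a RefSeq window (GRCm38.p6) of 250 bases before to 50 after the start, and the printed stretches are the longest parts of those windows outside GENCODE M21 untranslated exons. Both genes are on the + strand. The Col3a1 stretch runs up to its RefSeq start at 45311538. The Col1a2 stretch ends at 4505492, short of its RefSeq start at 4505618, and lies inside the GENCODE gene, which begins at 4504814. The stretches therefore cover unlike parts of their windows. Capitals mark matches to GGGCGG or TATAA on either strand; CCAAT was searched too. Both TATAA matches in Col3a1 overlap as one run of 6 letters.
Col1a2, chr6:4505370-4505492: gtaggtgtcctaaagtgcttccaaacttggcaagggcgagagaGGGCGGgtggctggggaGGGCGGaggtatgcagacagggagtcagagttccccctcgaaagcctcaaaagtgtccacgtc
Col3a1, chr1:45311288-45311537: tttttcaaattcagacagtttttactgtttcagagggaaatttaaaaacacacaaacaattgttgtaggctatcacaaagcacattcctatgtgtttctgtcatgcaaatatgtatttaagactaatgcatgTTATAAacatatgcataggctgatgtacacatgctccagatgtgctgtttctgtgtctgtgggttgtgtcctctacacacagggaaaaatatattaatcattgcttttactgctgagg
The Col1a2 stretch of 123 bases held 2 GGGCGG and none of the other motifs, with 59.3% G or C. The letters between it and the RefSeq start are not printed, and their motifs are not described. The Col3a1 stretch of 250 bases held 2 TATAA and none of the others, with 35.2% G or C. Over all 32851 windows of the RefSeq table, 35.7% held GGGCGG, 24.9% TATAA and 37.4% CCAAT. These shares are for whole windows, which are longer than either stretch, so the stretches cannot be compared with them. A match describes letters only.

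Col1a1, the α1 chain of type I collagen (chr11:94936224-94953042, mm10, ENSMUSG00000001506), had 82.2, 40.3, 16.7 and 13.5 CPM in ND 1 to ND 4. In HCD 1 to HCD 4 it had 64.9, 87.8, 83.1 and 18.9 CPM. HCD 4 was therefore among the low ND tumours and ND 1 among the high HCD tumours, so the groups overlapped. The counts behind these values ran from 195 in ND 4 to 1450 in HCD 2. The highest tumour stood 6.49 times above the lowest, whereas the median of this ratio was 1.34 over the 7172 genes with a mean of at least 20 CPM.

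Col1a2, the α2 chain of type I collagen (chr6:4504814-4541544), had 77.8, 39.5, 18.6 and 14.5 CPM in the ND tumours. In the HCD tumours it had 78.7, 85.5, 77.2 and 18.5 CPM. These are the same high and low tumours as for Col1a1. Col3a1, the chain of type III collagen (chr1:45311538-45349706), had 84.6, 49.9, 16.2 and 15.6 CPM in ND and 84.1, 86.0, 80.3 and 20.9 CPM in HCD. The ratio of the highest to the lowest tumour was 5.89 for Col1a2 and 5.51 for Col3a1.

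The chains of type V collagen shared the 3 lowest tumours with types I and III but not the rest of the order. Type V collagen joins type I in mixed fibrils. Its chain Col5a1 (chr2:27886425-28039514) had 59.1, 62.3, 45.8 and 45.0 CPM in ND and 64.6, 72.0, 56.0 and 49.3 CPM in HCD. Col5a3 (chr9:20770050-20815067) had 37.4, 47.9, 28.5 and 29.5 CPM in ND and 31.4, 35.9, 30.3 and 29.4 CPM in HCD. For both, ND 3, ND 4 and HCD 4 were again the lowest tumours, but the highest was at most 1.68 times the lowest. For Col5a3 the margin was small, with HCD 3 at 30.3 CPM against 28.5 to 29.5 CPM in those. ND 2, intermediate for types I and III, was the highest tumour for Col5a3 and stood above ND 1 for Col5a1. Col5a2, which lies beside Col3a1 on chromosome 1 at a distance of 24614 bases, was lower in level and varied 3.25-fold, with 19.9, 11.3, 7.53 and 6.18 CPM in ND and 20.1, 16.8, 13.6 and 6.35 CPM in HCD.

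**Figure D1:**
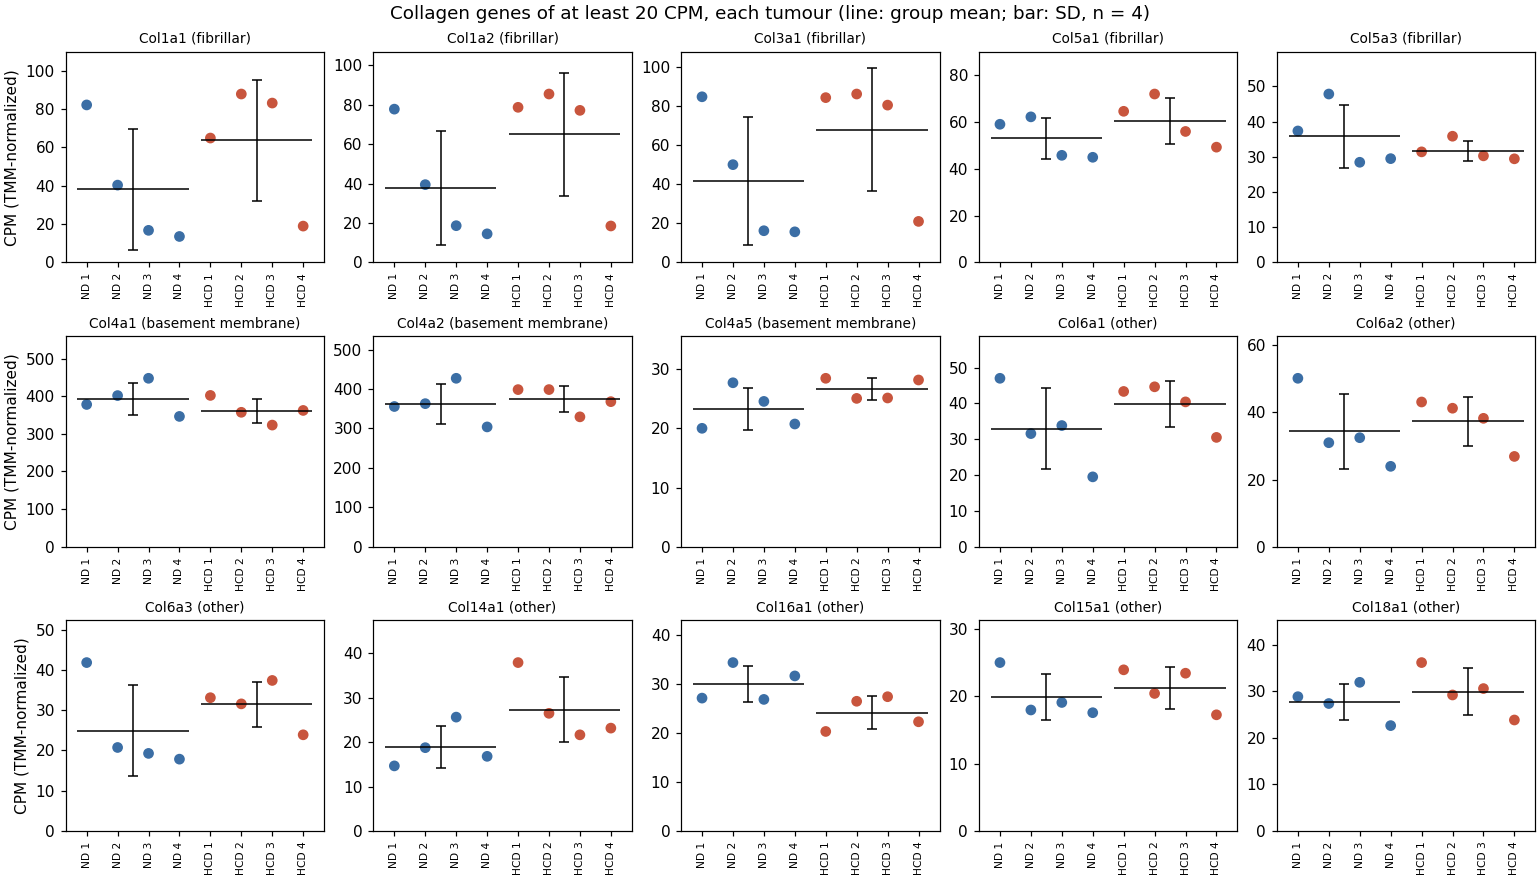
CPM (TMM-normalized, vertical axis from 0) of the 15 collagen genes with a mean of at least 20 CPM in each of the 8 tumours (horizontal axis), where points are tumours, lines are group means and bars are SD (n = 4). Col1a1, Col1a2 and Col3a1 lie between 13.5 and 20.9 CPM in ND 3, ND 4 and HCD 4, while Col4a1 stays between 323 and 447 CPM.

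The order of the tumours was counted over all genes after the values of type I and III collagens had been seen, so those genes meet it by choice. ND 3, ND 4 and HCD 4 were the 3 lowest libraries for 206 of 13186 tested genes (1.56%). They were the 3 lowest for 6 of 7 tested fibrillar members, for 0 of 4 basement membrane members and for 1 of 16 others. The other 1 was Col12a1, a fibril-associated chain, with 9.33, 6.21, 4.01 and 3.89 CPM in ND and 10.0, 10.7, 7.96 and 3.86 CPM in HCD. The 6 fibrillar members include Col1a1, Col1a2 and Col3a1, from which the order was taken. The rest of the 6 were Col5a1, Col5a2 and Col5a3, the last by a small margin. Col11a2 was the tested fibrillar gene outside that order, and its mean was below 1 CPM in both groups.

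Part of the fibroblast markers shared the order of the fibrillar collagens. A list of 14 markers without collagens, 12 of them tested, had ND 3, ND 4 and HCD 4 as the 3 lowest libraries for 7 of 12 genes: Pdgfra, Dcn, Dpt, Postn, Fbln2, Mfap5 and Loxl1. The other 5 tested markers did not: Pdpn was highest in ND 3 (5.25 CPM), Thy1 lowest in ND 2 (6.57 CPM), Fbln1 highest in HCD 4 and Fn1 lowest in HCD 3, and Pdgfrb was higher in ND 3 (16.9 CPM) than in ND 2 (13.3 CPM). The mean deviation of log2 CPM of that list from each gene's average over the 8 libraries was 0.61, 0.16, -0.86 and -0.91 in ND 1 to ND 4. In HCD 1 to HCD 4 it was 0.72, 0.64, 0.51 and -0.87. For Col1a1, Col1a2 and Col3a1 together the same quantity was 0.97, 0.05, -1.27 and -1.51 in ND, and 0.86, 1.05, 0.95 and -1.09 in HCD. The summed CPM of the fibroblast list did not follow this order, at 633 to 748 in ND and 611 to 762 in HCD, since Fn1 (349 to 514 CPM) and Fbln1 (184 to 225 CPM) made most of it. Lum and Fap, the 2 markers not tested, stayed at or below 1.03 CPM, and each was at 0 in at least 1 library. In bulk tissue, fewer fibroblasts and less of these RNAs per fibroblast cannot be told apart, and the part of fibroblast content in the collagen values was not tested.

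Other cell type lists differed less or in another order. The endothelial list (8 genes) deviated by 0.21, -0.29, -0.22 and -0.32 in ND and 0.22, 0.06, 0.26 and 0.08 in HCD, so HCD 4 was not low in it. The pericyte and smooth muscle list (8 of 9 tested) deviated by 0.14, 0.18, -0.21 and -0.36 in ND and 0.10, -0.013, 0.17 and -0.0010 in HCD. Within ND it was low in ND 3 and ND 4, as the fibrillar collagens were, but HCD 4 was not low in it. The melanocyte list stayed between -0.12 and 0.19 in the 8 tumours. Its member Mitf differed, at 205 to 287 CPM in ND and 391 to 516 CPM in HCD (log2 difference 0.85, edgeR adjusted p = 0.0459). The log2 differences of its other members ran from -0.12 for Pmel to 0.14 for Tyr. Skeletal muscle genes deviated by 1.83, 2.56, 0.45 and -1.13 in ND and by -1.15, -1.21, -0.26 and -1.09 in HCD, an order unlike that of the fibrillar collagens. The macrophage list ran from -0.83 in ND 2 to 0.61 in HCD 3, and the Schwann cell list from -0.35 in HCD 1 to 0.29 in ND 2. Of the 6 keratinocyte markers, Krt5 and Dsg3 were at 0 in all libraries, and the summed count of the list was 0 to 2. Cartilage markers summed to 1.48 to 3.30 CPM, nearly all of it Matn3.

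**Figure D2:**
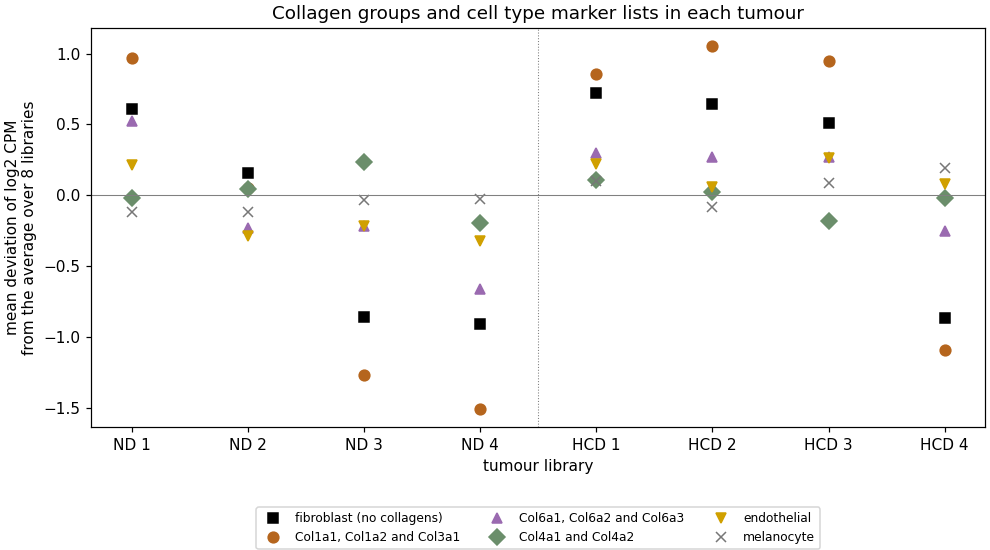
Mean deviation of log2 CPM from the average over the 8 libraries (vertical axis) in each tumour (horizontal axis) for 3 collagen groups and 3 marker lists, 1 point per list and tumour. The points of Col1a1, Col1a2 and Col3a1 span -1.51 to 1.05 and change sides with the fibroblast list, whereas those of Col4a1 and Col4a2 span -0.19 to 0.24.

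Basement membrane chains made up most collagen RNA, and the abundant ones varied less than types I and III. The highest tumour was 1.38, 1.41 and 1.42 times the lowest for Col4a1, Col4a2 and Col4a5. These ratios lie slightly above the median of 1.34 over genes with a mean of at least 20 CPM. Col4a1 (chr8:11198423-11312826, - strand) had 378, 402, 447 and 346 CPM in ND and 402, 357, 323 and 362 CPM in HCD. Its partner Col4a2 (chr8:11312805-11449287, + strand) had 356, 363, 427 and 304 CPM in ND and 398, 399, 329 and 368 CPM in HCD. Both chains assemble together into the common form of type IV collagen, and their genes start head to head, with annotated ends that share 22 bases. In ND 3, where type I collagen was low, both were at their highest, and in ND 4, also low in type I, Col4a2 was at its lowest. Col4a5 (chrX:141475385-141689234), a chain of specialised basement membranes, had 20.02, 27.7, 24.6 and 20.8 CPM in ND and 28.5, 25.1, 25.2 and 28.2 CPM in HCD. Col4a4 averaged 2.69 CPM in ND against 2.64 CPM in HCD. Col4a3 and Col4a6 did not pass the filter.

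On a per-length scale, Col4a2 and Col4a1 averaged 53.6 and 53.4 FPKM over the 8 tumours, against 8.04 for Col6a1, 7.39 for Col1a1 and 5.13 for Col3a1. Per tumour, the ratio of Col4a1 to Col1a1 in FPKM was 4.52, 9.79, 26.3 and 25.2 in ND and 6.09, 4.00, 3.82 and 18.8 in HCD. The ratio was thus highest in the tumours low in type I collagen. This follows from Col1a1 as its denominator, since Col4a1 varied at most 1.38-fold in CPM. The FPKM ratio of the partner chains Col1a1 and Col1a2 stayed between 1.93 and 2.52 in all tumours. That level depends on the gene lengths behind the deposited FPKM, 6934 bases for Col1a1 and 16209 bases for Col1a2, since their summed counts were nearly equal at 6878 and 6914.

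All collagen genes together took 0.137%, 0.123%, 0.121% and 0.0957% of the counts in ND 1 to ND 4. In HCD 1 to HCD 4 they took 0.149%, 0.144%, 0.128% and 0.109%. Group means were 0.119 ± 0.0171% in ND and 0.133 ± 0.0182% in HCD (SD, n = 4), and the groups overlapped. Basement membrane chains made 53.8% to 72.6% of the collagen counts, fibrillar chains 10.9% to 27.3% and the others 16.3% to 19.0%. The fibrillar part was below 14% in ND 3, ND 4 and HCD 4 (10.9%, 13.0% and 13.2%) and at least 20.2% in the other tumours.

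**Figure D3:**
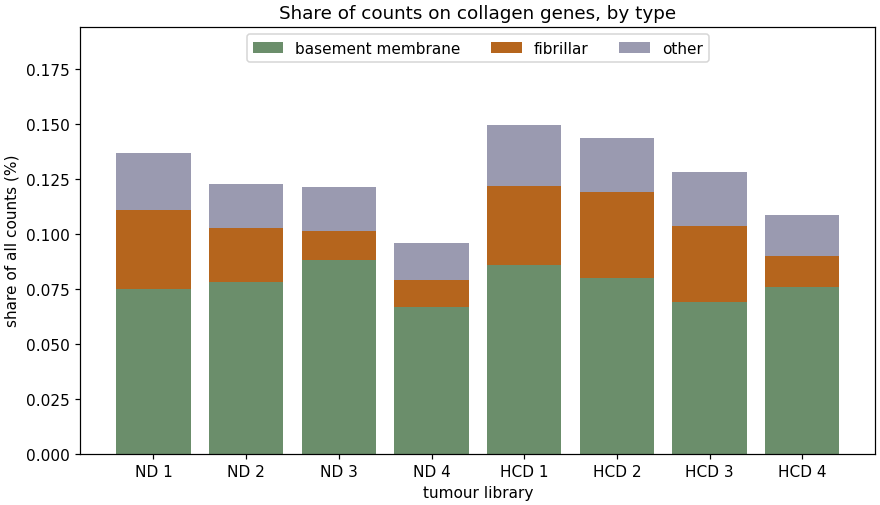
Share of all counts on collagen genes in percent (vertical axis from 0) in each tumour (horizontal axis), stacked by type. The basement membrane part runs from 0.0665% to 0.0881%, and the fibrillar part from 0.0124% to 0.0393%.

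Type VI collagen links cells to the matrix around them. Col6a1 (chr10:76708792-76726168) had 47.0, 31.6, 33.8 and 19.5 CPM in ND and 43.4, 44.6, 40.4 and 30.5 CPM in HCD. Col6a2, on the same chromosome at a distance of 85161 bases, had 50.2, 31.0, 32.5 and 23.9 CPM in ND and 43.1, 41.3, 38.2 and 26.9 CPM in HCD. Col6a3 (chr1:90765923-90843971) had 41.8, 20.7, 19.3 and 17.8 CPM in ND and 33.1, 31.6, 37.4 and 23.9 CPM in HCD. ND 1 was highest and ND 4 lowest for all of these genes. ND 2 was below ND 3 for Col6a1 and Col6a2 and above it for Col6a3. Mean deviations of these genes were 0.52, -0.23, -0.21 and -0.66 in ND and 0.30, 0.27, 0.27 and -0.25 in HCD.

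Multiplexins lie in the zone between basement membranes and connective tissue, and a fragment of the Col18a1 protein is known as endostatin. Col18a1 (chr10:77052178-77166548) had 28.8, 27.4, 31.9 and 22.6 CPM in ND and 36.2, 29.2, 30.6 and 23.8 CPM in HCD. Col15a1 (chr4:47208161-47313167) had 25.0, 18.0, 19.1 and 17.6 CPM in ND and 23.9, 20.4, 23.4 and 17.2 CPM in HCD. Both varied at most 1.60-fold, and for both ND 4 and HCD 4 were the lowest of their groups. The same held for 764 of all 13186 tested genes (5.79%).

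Among fibril-associated collagens, Col14a1 and Col16a1 did not follow type I collagen. Col14a1 (chr15:55307750-55520803) had 14.6, 18.7, 25.6 and 16.8 CPM in ND and 37.9, 26.5, 21.6 and 23.1 CPM in HCD. Summed adipocyte markers were at 7.55, 11.0, 7.72 and 8.33 CPM in ND and 41.0, 11.6, 23.5 and 9.13 CPM in HCD. Col14a1 and this sum were both highest in HCD 1 and lowest in ND 1. In ND the sum was mostly Fabp4, at 6.52, 10.2, 7.72 and 8.26 CPM. Adipoq, Plin1 and Cfd were at 0 in ND 3 but not in ND 1 (0.17, 0.23 and 0.63 CPM). The lowest place of ND 1 therefore rests on Fabp4. In contrast, HCD 3 was next for the markers and lowest of HCD for Col14a1. The part of the adipocyte markers in the Col14a1 values was not tested. Col16a1 (chr4:130047840-130099283) had 27.1, 34.3, 26.8 and 31.6 CPM in ND and 20.3, 26.4, 27.3 and 22.2 CPM in HCD.

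For diet, 0 of 27 tested collagens were called (edgeR quasi-likelihood test, Benjamini-Hochberg over all genes, lowest adjusted p = 0.29), against 24 of 13186 genes (0.182%). DESeq2 and limma-voom called 0 as well, against 431 and 19 of the 13186 genes. At an unadjusted p under 0.05 there were 2 of 27, Col16a1 and Col14a1, against 14.7% of all genes. Groups did not overlap for 0 of 27 members, against 9.67% of all genes. In direction, 19 were higher and 8 lower in HCD, and of all genes 51.1% were higher. The median log2 fold change was 0.15 over the 27 and 0.0049 over all genes. Leaving out 1 library, the collagen median ran from 0.065 without HCD 1 to 0.31 without HCD 4.

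By type, 6 of 7 fibrillar members were higher in HCD, with a median log2 fold change of 0.33. Basement membrane members were 2 higher and 2 lower, with a median of 0.0096, and the others were 11 higher and 5 lower, with a median of 0.11. Col1a1 averaged 38.2 ± 31.7 CPM in ND and 63.7 ± 31.4 CPM in HCD (SD, n = 4), a log2 difference of 0.73 (SE 0.579, edgeR adjusted p = 0.62). The corresponding log2 differences were 0.78 for Col1a2 (SE 0.553) and 0.70 for Col3a1 (SE 0.568). Each difference was smaller than the spread between tumours of a group. Col4a1 differed by -0.12 (SE 0.0914) and Col4a2 by 0.04 (SE 0.104), on the same scale.

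The diet difference of the fibrillar genes rested on which tumours were included. Leaving out 1 library at a time, the log2 difference of Col1a1 ran from 0.46 without ND 4 to 1.43 without ND 1. With a term for ND 2 to ND 4, the libraries with olfactory receptor counts, it was -0.37, and the fibrillar median was -0.32. This term leaves ND 1 as the only ND tumour set against HCD, and fibroblast markers were high in ND 1. The fibrillar median was 0.84 without ND 1 and 0.78 without HCD 4. Without ND 4 and HCD 4 together the fibrillar median was 0.55. No collagen was called in any of the 17 alternative fits, in which the lowest adjusted p was 0.114.

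Col16a1 averaged 29.9 ± 3.64 CPM in ND and 24.1 ± 3.37 CPM in HCD, a log2 difference of -0.31 (SE 0.125, edgeR adjusted p = 0.29). Col14a1 averaged 19.0 ± 4.75 CPM in ND and 27.3 ± 7.36 CPM in HCD, a log2 difference of 0.53 (SE 0.21, edgeR adjusted p = 0.29). Without HCD 1 the difference of Col14a1 was 0.32. Neither gene passed the threshold of 0.05 in any alternative.

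**Figure D4:**
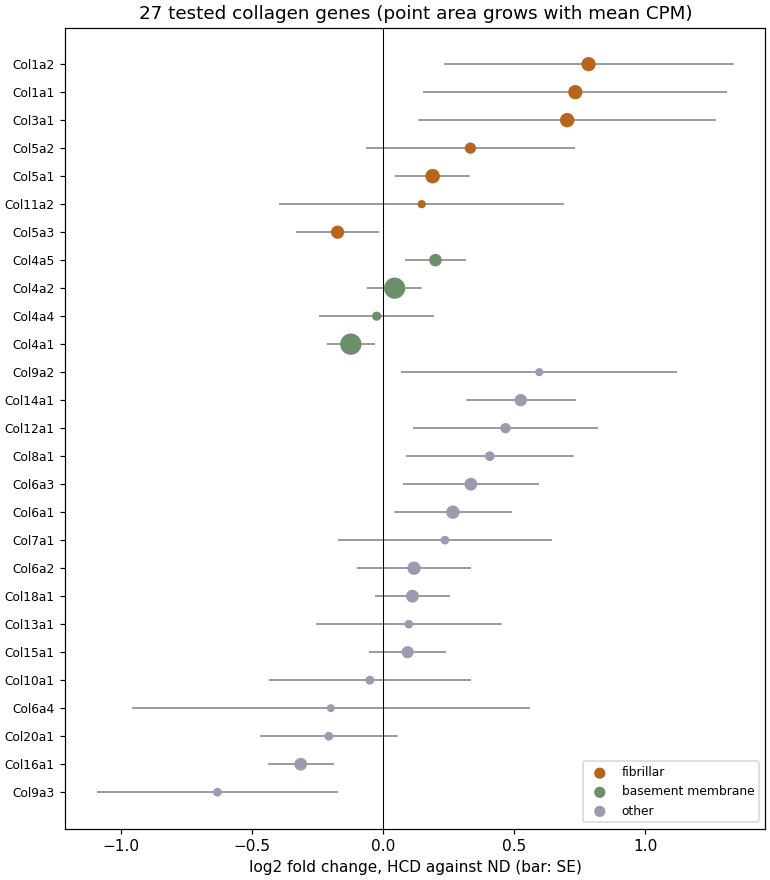
Log2 fold change of HCD against ND (horizontal axis) for the 27 tested collagen genes (vertical axis, grouped by type), where bars are standard errors and point area grows with mean CPM. Values of Col1a2, Col1a1 and Col3a1 are 0.78, 0.73 and 0.70 with wide bars, and Col4a1 and Col4a2 lie near 0.

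Ratios between members within a tumour remove a shared level. Over the 105 pairs of the 15 genes with at least 20 CPM, the FPKM ratios of ND and HCD did not overlap for 6 pairs (5.71%). The 9.67% given above is for CPM of single genes, and no such share was computed for pairs of other genes. The pairs are therefore given as values only. Col4a1 over Col4a2 was 1.04, 1.08, 1.02 and 1.11 in ND and 0.983, 0.873, 0.956 and 0.959 in HCD. Col5a1 over Col5a3 was 1.25, 1.02, 1.27 and 1.20 in ND and 1.62, 1.58, 1.46 and 1.32 in HCD. Col4a1 over Col4a5 was 16.7 to 21.8 in ND and 14.8 to 16.4 in HCD. The other 3 pairs were Col4a1 with Col14a1, Col4a2 with Col14a1, and Col16a1 with Col4a5.

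**Figure D5:**
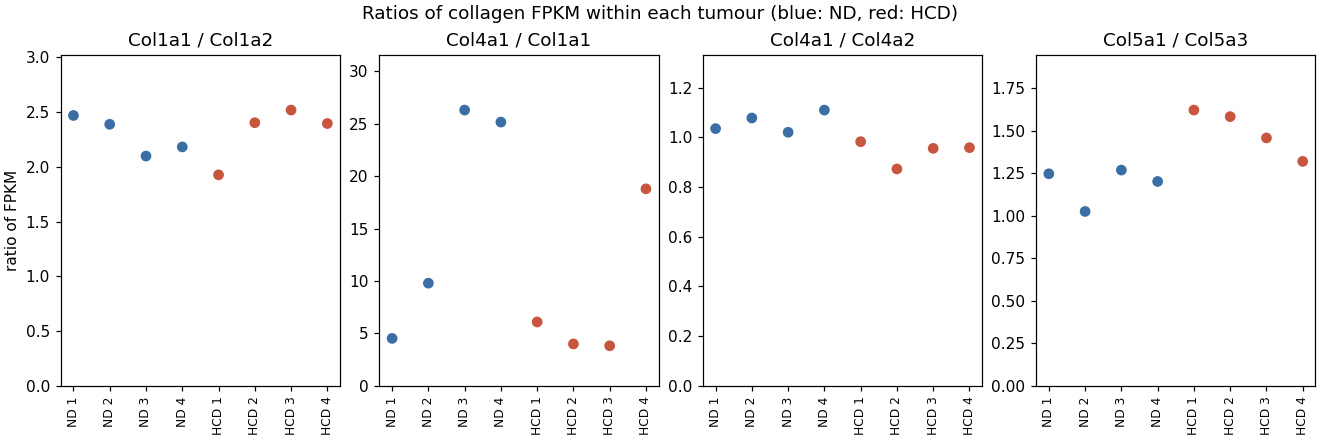
Ratio of FPKM within each tumour (vertical axes from 0) for 4 pairs of collagen genes, with ND in blue and HCD in red along the horizontal axis. Col4a1 over Col4a2 lies at 1.02 to 1.11 in ND and 0.873 to 0.983 in HCD, whereas Col4a1 over Col1a1 runs from 3.82 to 26.3 and overlaps between diets.

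The remaining members were scarce. The 12 tested genes with a mean below 20 CPM averaged 0.463 to 12.7 CPM, with 7 higher and 5 lower in HCD and a lowest unadjusted p = 0.198 in edgeR. Col8a1, a network-forming chain of vessel walls, was among them with 4.81, 3.80, 2.96 and 2.22 CPM in ND and 7.50, 3.21, 3.81 and 3.86 CPM in HCD. Col10a1, the type X chain of growth cartilage, averaged 1.92 CPM in ND and 1.84 CPM in HCD. The 17 members that were not tested had summed counts of 2 to 71 over the 8 libraries, and no library had more than 22 for any of them. They included Col2a1, the cartilage fibril chain, and Col17a1, a keratinocyte anchoring chain. No member was without a count, and 32 were counted in all 8 libraries.

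Genes that make, cross-link, degrade or sense collagen were read from a list of 47, of which 37 were tested. For diet, 21 were higher and 16 lower in HCD, with a median log2 fold change of 0.02. By edgeR 0 were called, 3 had an unadjusted p under 0.05 (against 14.7% of all genes), and the lowest adjusted p was 0.137. Groups did not overlap for 2 of 37, P4ha2 and P3h3, against 9.67% of all genes, so both are given as values only. P4ha2, a subunit of the prolyl hydroxylase that stabilises the triple helix, had 48.4, 48.0, 44.5 and 39.4 CPM in ND and 34.8, 38.5, 34.5 and 36.1 CPM in HCD. Its log2 difference was -0.32 (SE 0.087), and DESeq2 alone among the alternatives called it, with an adjusted p = 0.0404 (range over alternatives 0.0404 to 0.36). DESeq2 called 431 of all 13186 genes.

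P3h3, of the prolyl 3-hydroxylase family, had 54.9, 63.6, 54.8 and 54.3 CPM in ND and 44.3, 48.2, 34.8 and 51.7 CPM in HCD (log2 difference -0.35, SE 0.12, edgeR adjusted p = 0.226). P3h1, another prolyl 3-hydroxylase, had 60.0, 69.0, 65.2 and 60.8 CPM in ND and 80.8, 71.4, 83.2 and 65.1 CPM in HCD (log2 difference 0.24, SE 0.0927, edgeR adjusted p = 0.283). HCD 4 lay within the range of ND, so the groups overlapped. Mrc2, an endocytic collagen receptor, had 3.43, 4.16, 2.78 and 3.82 CPM in ND and 4.02, 7.27, 4.33 and 3.46 CPM in HCD (log2 difference 0.43, SE 0.257, edgeR adjusted p = 0.491). P4hb, the partner subunit of prolyl 4-hydroxylase, had 2016, 2176, 2070.3 and 1953 CPM in ND and 1842, 2058, 1858 and 1909 CPM in HCD (log2 difference -0.10, SE 0.0611, edgeR adjusted p = 0.498). The groups of both genes overlapped. Lair1, an inhibitory collagen receptor of immune cells, had 6.46, 1.69, 3.46 and 1.60 CPM in ND and 6.06, 6.79, 5.54 and 3.01 CPM in HCD (log2 difference 0.68, SE 0.434, edgeR adjusted p = 0.516). Its groups overlapped too, and its difference was -0.28 once ND 2 to ND 4 had a term of their own. Across tumours, ND 3, ND 4 and HCD 4 were the 3 lowest for 4 of 37 genes of this list, Lox, Loxl1, Dcn and Bgn, of which Dcn and Loxl1 are also in the fibroblast list. Lox, which cross-links fibrillar collagen, had 9.55, 6.99, 0.247 and 0.208 CPM in ND and 8.81, 10.2, 11.7 and 0.0567 CPM in HCD. In contrast, Serpinh1, the collagen chaperone, ran from 386 to 643 CPM, and Sparc, a collagen-binding matrix protein, from 901 to 1349.6 CPM, neither with that order.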

How the data were processed

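RNA from tumour tissue was sequenced as 8 paired-end TruSeq libraries, per the labels' protocols. Listed without role or order in the submitters' processing notes are the build mm10 and the tools CASAVA 1.8, HTSeq, edgeR and TopHat2 2.0.9. The strand setting and annotation release: not given in the sources used here. The authors deposited whole-number counts per Ensembl gene and, per the file headers, FPKM, which the values show to be counts over gene length and library total. Names and coordinates came from GENCODE M21, which matched 34267 of 34745 genes.

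Diet was tested on counts with edgeR 4.0.16 (limma 3.58.1, R 4.3.3; quasi-likelihood, TMM, minimum count 10, minimum total 15), with Benjamini-Hochberg adjustment over 13186 genes and a threshold of 0.05. SE were derived from the fold change and the F statistic. FPKM were used only for levels per length and ratios. Libraries of a group differed by 14.5 to 37.6 times sampling variance, which is more than resequencing of 1 library gives but leaves unknown whether any tumour gave more than 1 library. Members, lists and alternatives were chosen with earlier results of these data known. Named in every library were collagens averaging 20 CPM or more and the 6 synthesis, processing or receptor genes with the smallest p. Col5a2, Col12a1, Col8a1, Lox, Serpinh1, Sparc and the fibroblast markers were added after values were seen. Members share few exon bases with other genes, but reads from those bases cannot be assigned without strand. Alternatives included DESeq2 1.42.0, limma-voom, other scalings and leaving out libraries.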

Additional observations from a re-analysis of the deposited data

Results flagged for a closer look

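Of 74 groups of 4 tumours examined for a sample far from the other 3 by Dixon's ratio, 5 stood out, and chance gives about 1 in 20. In the HCD group, HCD 4 was the lowest for Col3a1 (20.9 CPM against 80.3 to 86.0) and for Col1a2 (18.5 CPM against 77.2 to 85.5). HCD 1 was the highest for Col8a1 (7.50 CPM against 3.21 to 3.86). In the ND group, ND 1 was the highest for Col6a3 (41.8 CPM against 17.8 to 20.7) and ND 2 for P3h3 (63.6 CPM against 54.3 to 54.9).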

How the results depend on the processing

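Over 17 alternatives, 458 log2 fold changes of collagens were recomputed; 425 had the direction and side of the threshold of the reported fit, 33 had the other direction and 0 were called. The 24 genes called in all became 93 without a filter on low counts, 431 with DESeq2, 50 with robust dispersion, 5 with a term for ND 2 to ND 4, and 0 without ND 4 and HCD 4 together. Leaving out 1 library gave 0 to 12. With the replicate block 0 genes were called; same-numbered tumours did not deviate together (correlations 0.02, -0.01, -0.07 and 0.11), so the block rests on a shared number only. DESeq2 called 1 gene of the synthesis, processing and receptor list, P4ha2. The cause of each change below was not tested. With the term for ND 2 to ND 4 the collagen median was -0.066, and these genes took the other sign: Col3a1 -0.32, Col1a2 -0.26, Col1a1 -0.37, Col6a1 -0.24, Col6a2 -0.43, Col6a3 -0.41, Col15a1 -0.23, Col5a2 -0.49, Col12a1 -0.20, Col8a1 -0.066, Col11a2 -0.52, Lair1 -0.28, Col10a1 0.26, Col20a1 0.064 and Col6a4 1.83. Without ND 4 and HCD 4 together Col4a2 was at -0.025, and with limma-voom Col6a4 was at 0.061. Leaving out 1 library at a time, the log2 fold change ran from -0.032 to 0.13 for Col4a2, -0.020 to 0.36 for Col6a2, -0.15 to 0.077 for Col4a4, -0.27 to 0.19 for Col10a1, -0.056 to 0.45 for Col7a1, -0.12 to 0.29 for Col13a1, -0.50 to 0.48 for Col11a2 and -0.61 to 0.23 for Col6a4. The collagen share was 0.139% in ND and 0.151% in HCD outside mitochondrial genes, and 0.0414% and 0.0473% of the summed FPKM. Depth limits the members below 1 CPM, which had few counts per library.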
